A study of Mus musculus with 18 samples.

Results

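The genes described here encode the chaperones that fold and refold proteins and the co-chaperones that serve them. They were taken by symbol from 18191 measured mouse genes, and 79 matched. These were 12 Hsp70 genes (Hspa), 1 Hsp90 gene (Hsp90aa1), 8 small heat shock protein genes (Hspb), 44 J-domain protein genes (4 Dnaja, 13 Dnajb and 27 Dnajc), 9 CCT chaperonin genes (Cct) and 5 prefoldin genes (Pfdn). Hspa5 and Hsp90b1, the Hsp70 and Hsp90 of the endoplasmic reticulum (ER), were left out by the rule. A symbol does not give a location. By textbook location, 6 of the 79 were counted as encoding proteins whose chaperone domain lies inside the ER (Hspa13, Dnajb9, Dnajb11, Dnajc1, Dnajc3 and Dnajc10). Another 5 were counted as encoding mitochondrial ones (Hspa9, Dnaja3, Dnajc11, Dnajc15 and Dnajc30). Both lists may be incomplete, and counts by location below cover only the genes listed. Dnajb12 and Dnajb14, which sit in the ER membrane with the J-domain in the cytosol, are not counted among the ER genes below. The group is therefore called the chaperone genes below, rather than the cytosolic chaperones. Each gene was read from the 1 probe set, of 194 in all, that had its highest mean over the arrays. Of the 79 genes, 48 had several probe sets and 31 had 1.

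Chaperones bind unfolded stretches of other proteins and keep them from aggregating. Hsp70 proteins do so in a cycle of ATP binding and hydrolysis, which J-domain proteins start and nucleotide exchange factors end. Small heat shock proteins hold unfolded proteins without ATP. Prefoldin takes up new actin and tubulin chains and passes them to the CCT chaperonin, a closed ring in which they fold. After heat or other protein damage, heat shock factors raise the transcription of the inducible members, such as Hspa1a, Hspa1b and Dnajb1, while Hspa8 and most CCT genes are active in unstressed cells. Motoneurons are known for long axons rich in tubulin and for a high threshold for this heat shock response.

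The study measured RNA of cultured mouse motoneurons on 18 Affymetrix Mouse430_2 arrays, 3 for each of 6 groups. The cells came from spinal cords at embryonic day E12.5 and were selected by panning on the p75 receptor. They were left untreated (wild-type), or received lentivirus with an empty vector or with a short hairpin RNA against Smn, and then grew for 7 days in chambers whose microchannels only axons cross. BDNF was present on the axonal side at 20 ng/ml, CNTF on both sides at 5 ng/ml, and RNA of the somatodendritic and the axonal side was extracted apart and amplified in 2 rounds. The hairpin, its promoter and the strain are not given in the sources used here. Nor do the labels say that the 3 arrays of a group were separate cultures. Every p-value therefore measures the spread between arrays, which may be technical, and their number limits the precision.

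All values are the deposited log2 levels. The arrays of each compartment share a distribution of their own, so the 2 compartments were taken to be normalized apart, which the sources used here do not state. Background on an array was taken as the 95th percentile over 153 probe sets of genes that motoneurons are not known to use, such as olfactory receptors. It lay between 6.27 and 6.54 on somatodendritic and between 6.54 and 7.64 on axonal arrays. Axonal arrays were less alike. Correlations within a group were at least 0.994 in the somatodendritic groups, but among axonal arrays they ran from 0.840 to 0.902 (wild-type), from 0.782 to 0.882 (empty vector) and from 0.744 to 0.795 (knockdown). From 4995 to 6756 genes were above background on the knockdown axon arrays, against 6537 to 9585 on the other axonal arrays. Axonal knockdown replicate 1 had the lowest correlation with the mean of the somatodendritic controls (0.539), and empty vector replicate 2 the lowest among the axonal controls (0.705). All 10 neuron markers were above background in the somatodendritic groups. Of 10 motoneuron markers, Prph, Ret and Slit2 were above it on every somatodendritic array, while Chat, Isl2, Lhx3, Mnx1, Slc18a3 and Slc5a7 were above it on none. Smn1, the targeted gene, was above background on 1 of 18 arrays, so its levels give no check of the knockdown. The somatodendritic difference from empty vector was -0.14 (limma, adjusted p = 0.412). In bulk samples like these, fewer cells of a type and less RNA per cell cannot be told apart.

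Most chaperone genes were measurable in cell bodies and fewer in axons. Above background on all 3 arrays of a group were 59, 61 and 61 of the 79 in the wild-type, empty vector and knockdown somatodendritic samples, and 50, 43 and 28 in the axonal ones. Over all 18 arrays, 24 genes were above background throughout, 44 on some arrays and 11 on none. The latter were Cct6b, Cct8l1, Dnajb3, Dnajb7, Dnajb13, Dnajc5b, Dnajc5g, Hspa12b, Hspa1l, Hspb3 and Hspb7, several of which are known from testis or muscle. The median SD of a chaperone gene between arrays of a group was 0.12, 0.11 and 0.08 log2 units in the somatodendritic groups and 0.44, 0.64 and 0.60 in the axonal groups.

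After Smn knockdown, the somatodendritic arrays had less RNA of the stress-inducible Hsp70 genes and of several J-domain genes, and more of prefoldin subunits 1 and 2. The largest fall was that of Hspa1b, the inducible Hsp70, by 1.14 log2 units. The largest rise was that of Pfdn1, by 0.81. Against empty vector, limma with Benjamini-Hochberg adjustment over all 18191 genes called 24 of the 79 (adjusted p under 0.05), 8 higher and 16 lower. Among all genes 28.0% were called, 12.46% higher and 15.5% lower, and the median difference was -0.02 in the chaperone genes and -0.02 in all genes. The share of chaperone genes that changed was thus near that of all genes, and what follows concerns which members did. Class and list counts against empty vector below stand beside these same shares of all genes. Of the 24, Dnajb3, Hspb6 and Dnajc25 were not above background in either group. Against wild-type, which shares the knockdown arrays, 28 were called, 11 higher and 17 lower, beside 36.0% of all genes, 15.6% higher and 20.4% lower. In 38 of 79 genes the 3 knockdown arrays did not overlap the empty vector arrays, against 43.3% of all genes, and in 39 they did not overlap the wild-type arrays, against 48.7%. The calls rest on estimating the spread within the compartment: in a single limma fit over all 18 arrays, 0 of 79 were called against empty vector, with 4 at an unadjusted p under 0.05, and 1 against wild-type, where 0.566% and 0.792% of all genes were called.

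**Figure D1:**
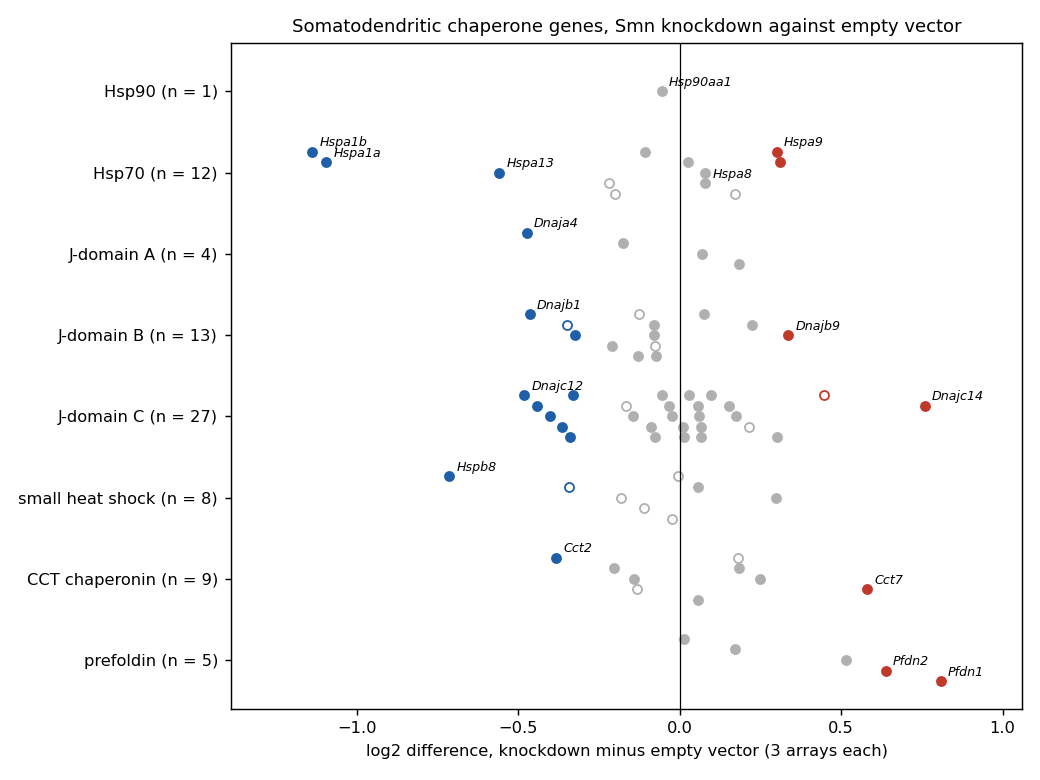
Log2 differences of the 79 chaperone genes between the somatodendritic knockdown and empty vector arrays, by class, each point a gene. Red points were called higher, blue points called lower and grey points not called, and open points are genes not above background in either group. The Hsp70 class reaches down to -1.14 (Hspa1b), while the prefoldin class reaches up to 0.81 (Pfdn1).

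In the Hsp70 class the inducible members fell, while the abundant Hspa8 was not called. Hspa1b stood at 11.95, 12.01 and 11.57 on the wild-type arrays, 11.52, 11.51 and 11.57 with empty vector, and 10.44, 10.37 and 10.38 after knockdown. All knockdown arrays lay below every control array. Hspa1b fell by 1.14 against empty vector (SE 0.11, limma, adjusted p = 1.12e-05), which is 2.20-fold, and by 1.45 against wild-type (adjusted p = 1.58e-06), which is 2.73-fold. Its 3 probe sets all read lower, by -1.14, -1.39 and -1.47 against empty vector. Hspa1a, its near-identical neighbour, stood at 7.58, 7.58 and 6.96 in wild-type, 7.14, 7.38 and 6.79 with empty vector, and 6.19, 6.01 and 5.82 after knockdown. The knockdown arrays again lay below all controls, and none of them exceeded background. The fall against empty vector was at least 1.67-fold (limma, adjusted p = 0.000725). The 2 copies share most of their sequence, so the signal of one may partly come from the other.

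Hspa8, the constitutive Hsp70 that also uncoats clathrin vesicles, stood at 13.57, 13.84 and 13.86 in wild-type, 13.71, 13.92 and 13.74 with empty vector, and 13.85, 13.88 and 13.88 after knockdown. The groups overlapped. Its difference from empty vector was 0.08 (SE 0.10, limma, adjusted p = 0.617), with other Hspa8 probe sets at 0.65 and 0.48. Hspa13, an Hsp70 of the ER, fell by 0.56 (adjusted p = 0.000504 in limma), but its second bright probe set read 0.29, and the mean over its probe sets ended the call (-0.05, adjusted p = 0.782 in limma). Hspa9, the mitochondrial Hsp70, and Hspa14, an Hsp70 of the ribosome-bound complex, rose by 0.30 and 0.31 (limma, adjusted p = 0.0182 and 0.0348). The call of Hspa9 ended without empty vector replicate 1 or 3 or knockdown replicate 2 or 3 (0.25 to 0.29, adjusted p up to 0.0754 in limma), and that of Hspa14 without empty vector replicate 2 or 3 or any knockdown array (0.26 to 0.33, adjusted p up to 0.123 in limma). Hspa4, a nucleotide exchange factor for Hsp70, differed by 0.03 (adjusted p = 0.894 in limma). In all, 2 of the 12 Hsp70 genes rose and 3 fell, with a class median of -0.04. Hsp90aa1, the inducible Hsp90, ranged from 13.24 to 13.40 on the control arrays and stood at 13.22, 13.23 and 13.38 after knockdown. It overlapped both control groups and differed from empty vector by -0.06 (limma, adjusted p = 0.693), while other probe sets for it read 0.38 and 1.67.

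**Figure D2:**
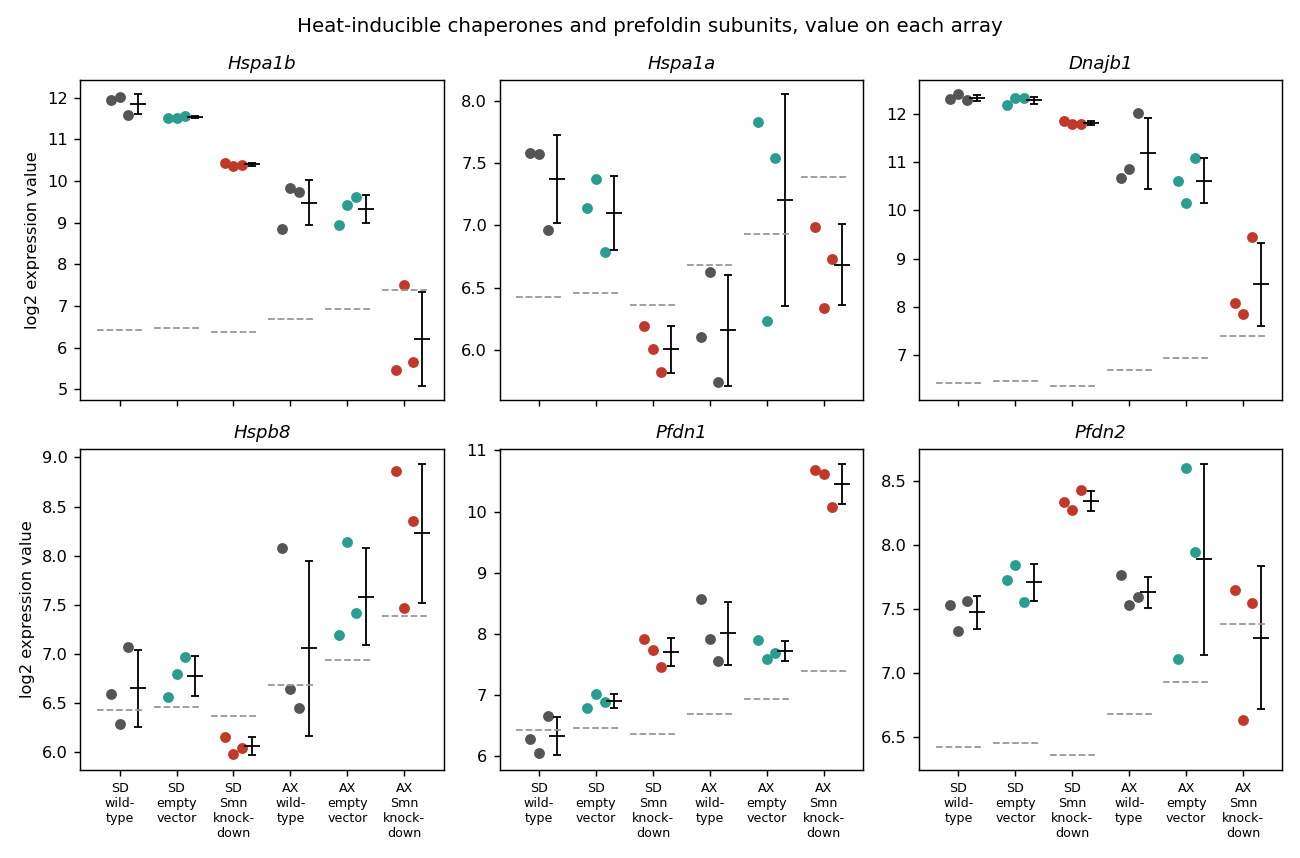
Deposited log2 levels (vertical axis) of Hspa1b, Hspa1a, Dnajb1, Hspb8, Pfdn1 and Pfdn2 on each of the 3 arrays of the 6 groups (SD, somatodendritic; AX, axonal), with the group mean ± SD in black and the mean background of the group as a dashed line. Hspa1b lies at 10.37 to 10.44 on the somatodendritic knockdown arrays and at 11.51 to 12.01 on the controls, and Pfdn1 at 10.08 to 10.68 on the axonal knockdown arrays and at 7.55 to 8.57 on the axonal controls. The compartments appear normalized apart.

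Heat shock factors bind inverted repeats of the letters GAA. The bases upstream of both inducible Hsp70 genes, of Cct2, which also fell, and of Dnaja1, a constitutive J-domain gene that was not called, are shown because each holds a short form of such a repeat, GAANNTTC. Capitals mark GAANNTTC. The other short form, TTCNNGAA, was not searched. The sequences are the 250 bases before the RefSeq transcript start in build GRCm38.p6, 5′ to 3′ on the strand of the gene, at chr17:34959239-34959488 (minus strand) for Hspa1b, chr17:34972157-34972406 (minus strand) for Hspa1a, chr10:117063376-117063625 (minus strand) for Cct2 and chr4:40722218-40722467 (plus strand) for Dnaja1.
Hspa1b: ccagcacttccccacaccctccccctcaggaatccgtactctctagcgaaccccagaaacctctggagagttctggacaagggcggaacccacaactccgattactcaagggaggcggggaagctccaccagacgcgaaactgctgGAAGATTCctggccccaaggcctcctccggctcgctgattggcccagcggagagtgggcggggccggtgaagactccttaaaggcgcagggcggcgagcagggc
Hspa1a: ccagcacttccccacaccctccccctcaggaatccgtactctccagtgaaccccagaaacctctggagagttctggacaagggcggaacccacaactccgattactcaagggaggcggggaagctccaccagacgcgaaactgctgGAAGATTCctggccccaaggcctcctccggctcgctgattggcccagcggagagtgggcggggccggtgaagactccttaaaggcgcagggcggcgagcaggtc
Cct2: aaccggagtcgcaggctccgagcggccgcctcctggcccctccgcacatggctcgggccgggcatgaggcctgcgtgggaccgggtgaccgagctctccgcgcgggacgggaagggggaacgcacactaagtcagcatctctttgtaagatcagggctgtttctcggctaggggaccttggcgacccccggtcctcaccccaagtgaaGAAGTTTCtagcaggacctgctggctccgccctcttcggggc
Dnaja1: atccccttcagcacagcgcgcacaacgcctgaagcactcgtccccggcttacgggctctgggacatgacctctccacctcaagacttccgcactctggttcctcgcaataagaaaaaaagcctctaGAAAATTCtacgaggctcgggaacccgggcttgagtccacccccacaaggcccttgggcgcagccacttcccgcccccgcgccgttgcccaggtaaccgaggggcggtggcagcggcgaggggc
The repeat begins 104 bases before the start in both Hsp70 genes, 42 in Cct2 and 124 in Dnaja1. The Hspa1a and Hspa1b sequences are identical at 247 of 250 positions.

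Promoter windows of 300 bases, from 250 before to 50 after the start, were given for 64 of the 79 genes. The letters GAANNTTC, which read alike on both strands, occurred in 13 of the 64 (20.3%), against 9.04% of 27025 genes. Of the genes called lower against empty vector, 7 of the 13 with a window held them, namely Cct2, Dnaja4, Dnajc27, Hspa1a, Hspa1b, Hspb6 and Hspb8. None of the 6 called higher did, and 6 of the 45 not called did (Cct8l1, Dnaja1, Dnajb6, Dnajc5g, Hspb1 and Hspb3). Against wild-type the counts were 5 of 13, 0 of 8 and 8 of 43. The longer repeat, GAANNTTC followed by NN and GAA and so containing the short one, was searched on both strands and occurred only in Dnajb6 (0.662% of all genes). The ER stress element, CCAAT and CCACG with 9 bases between them, occurred on either strand only in Dnajc3 (0.137% of all genes). A match is a description of the letters and not a binding site, and the short repeat and the ER element were chosen after the expression values had been seen.

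Among the J-domain genes, 10 of 44 were called lower and 3 higher, beside 15.5% and 12.46% of all genes. Dnajb3, called lower, and Dnajc25, called higher, were not above background in either group. Dnajb1, the stress-inducible partner of Hsp70, stood at 12.31, 12.41 and 12.30 in wild-type, 12.20, 12.33 and 12.34 with empty vector, and 11.87, 11.80 and 11.80 after knockdown. No knockdown array reached a control array. Dnajb1 fell by 0.47 against empty vector (SE 0.08, limma, adjusted p = 0.000983), or 1.38-fold. This rests on 1 bright probe set. The mean over the probe sets of Dnajb1 gave 0.05, and a second, dim set read 0.56. Dnaja4 fell by 0.47 (adjusted p = 0.00107 in limma), and Dnajc2, which acts with Hspa14 at the ribosome, by 0.44 (limma, adjusted p = 0.0034). Both calls also ended with the mean over probe sets (-0.18 and -0.08), and a second bright probe set for Dnajc2 read 0.60. Dnajc12, a partner of aromatic amino acid hydroxylases, fell by 0.48 (limma, adjusted p = 0.00277).

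Dnajc14 went the other way. It stood at 7.68, 7.95 and 7.81 in wild-type, 8.03, 8.02 and 8.03 with empty vector, and 8.84, 8.80 and 8.72 after knockdown, with no overlap. The rise was 0.76 against empty vector (SE 0.09, limma, adjusted p = 5.2e-05), or 1.69-fold, and other Dnajc14 probe sets read 0.30 and 0.85. Constitutive members with high levels were not called. Dnaja1 differed by 0.18 (limma, adjusted p = 0.195), Dnajb6 by -0.08, and Dnajc5, the cysteine string protein of synaptic vesicles, by 0.18. By location, 3 of the 6 ER genes fell against empty vector (Hspa13, Dnajc3 and Dnajc10) and 1 rose (Dnajb9, by 0.34, adjusted p = 0.027 in limma). Against wild-type 4 of the 6 fell and none rose. Against empty vector, the call of Dnajb9 ended without empty vector replicate 2 or knockdown replicate 2 or 3 (0.25 to 0.33), and that of Dnajc3 without empty vector replicate 2 or knockdown replicate 1 or 2 (-0.38 to -0.29) and with the mean over its probe sets (-0.09).

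Small heat shock proteins were mostly near background in the cell bodies. Hspb8, which works with Bag3 in the removal of misfolded proteins, stood at 6.59, 6.29 and 7.07 in wild-type, 6.56, 6.79 and 6.97 with empty vector, and 6.16, 5.98 and 6.04 after knockdown. No knockdown array was above background and all lay below the controls. The fall was at least 1.33-fold against empty vector (limma, adjusted p = 0.00673). Against wild-type it was at least 1.22-fold (limma, adjusted p = 0.015), and that call ended without knockdown replicate 2 (-0.55, adjusted p = 0.0588 in limma) and without probe sets that match several transcripts (-0.38, adjusted p = 0.191 in limma). Hspb1, the small heat shock protein of growing axons, lay between 6.26 and 6.59 in all somatodendritic groups and differed by 0.06 (limma, adjusted p = 0.733). Of the 8 genes, 2 fell and none rose. Cryab, a small heat shock protein outside the Hspb symbols that is abundant in glia, fell by 2.30 (SE 0.34, limma, adjusted p = 0.000329), at least 3.75-fold.

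Chaperonin and prefoldin genes were called in both directions. Of the 9 Cct genes, Cct7 rose and Cct2 fell against empty vector, and the class median was 0.06. Cct7 stood at 11.21, 10.60 and 11.65 in wild-type, 11.85, 11.82 and 11.73 with empty vector, and 12.39, 12.43 and 12.32 after knockdown. Knockdown arrays were the highest and wild-type arrays the lowest and most spread. Cct7 rose by 0.58 against empty vector (SE 0.19, limma, adjusted p = 0.0407), and by 1.22 against wild-type (limma, adjusted p = 0.000337). The call against empty vector ended without wild-type replicate 1 or any 1 array of the empty vector or knockdown group (0.54 to 0.61, adjusted p up to 0.116 in limma). Cct2 stood at 12.66 to 12.79 in wild-type, 12.69 to 12.83 with empty vector and 12.44, 12.32 and 12.32 after knockdown, below all controls. It fell by 0.38 against empty vector (SE 0.08, limma, adjusted p = 0.00409), a call that ended without probe sets that match several transcripts (-0.12, adjusted p = 0.313 in limma). Tcp1, the first subunit of the same ring, differed by 0.05 (adjusted p = 0.662 in limma). Against wild-type 3 of the 9 rose (Cct5, Cct7 and Cct8, the last not with the mean over its probe sets, 0.14) and 2 fell (Cct2 and Cct4).

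Of the 5 Pfdn genes, 2 rose against empty vector and 3 against wild-type, none fell, and the medians were 0.51 and 0.87. Pfdn1 stood at 6.27, 6.04 and 6.66 in wild-type, where 1 of 3 arrays exceeded background, at 6.78, 7.02 and 6.87 with empty vector, and at 7.91, 7.73 and 7.46 after knockdown. The groups followed in that order without overlap. Pfdn1 rose by 0.81 against empty vector (SE 0.15, limma, adjusted p = 0.00178), or 1.75-fold. Empty vector and wild-type themselves differed by 0.57 (limma, adjusted p = 0.089). Pfdn2 stood at 7.54, 7.33 and 7.56, at 7.72, 7.84 and 7.56, and at 8.34, 8.27 and 8.43 in the same order of groups. Its knockdown arrays were above all controls, and it rose by 0.64 (SE 0.10, limma, adjusted p = 0.000496), or 1.56-fold. Pfdn4, Pfdn5 and Pfdn6 differed from empty vector by 0.01, 0.17 and 0.51 and were not called.

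Vbp1, which encodes the prefoldin subunit that the Pfdn symbols leave out, went down. It stood at 12.29, 12.36 and 12.22 in wild-type, 12.14, 12.16 and 12.20 with empty vector, and 11.12, 11.06 and 11.14 after knockdown. The knockdown arrays lay about a full log2 unit below the controls. The fall was 2.08-fold against empty vector, by 1.06 (SE 0.08, limma, adjusted p = 1.32e-06). Vbp1 and Pfdn5 encode the alpha-type subunits of the prefoldin hexamer, and Pfdn1, Pfdn2, Pfdn4 and Pfdn6 the beta-type ones. Among the 13 partners of the chaperonin and prefoldin, Vbp1 fell and Pdcl3, a phosducin-like helper of CCT, rose by 0.51 (limma, adjusted p = 0.0132).

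Among the genes that assist Hsp70 and Hsp90, more rose than fell. Of 29 co-chaperones, 9 rose and 4 fell against empty vector, with a median of 0.12, and 14 rose and 5 fell against wild-type. Fkbp4, an immunophilin that links Hsp90 to dynein, rose by 0.89 (limma, adjusted p = 0.00477), or 1.85-fold. Stip1, which joins Hsp70 to Hsp90, rose by 0.59 (limma, adjusted p = 0.00293) and Ahsa1, the activator of the Hsp90 ATPase, by 0.51 (limma, adjusted p = 0.0142). Tomm34, Sgtb and Bag5 rose by 0.79, 0.63 and 0.52, whereas Bag2 fell by 0.52 (limma, adjusted p = 0.013). The inducible Bag3 and Hsph1, which respond to heat shock factors, differed by -0.05 and 0.05 (limma, adjusted p = 0.772 and 0.765), Bag3 without rising above background. None of 4 genes for heat shock factors or their binding protein was called against empty vector, and 3 of the 4 were not above background in either group. Hsbp1, the binding protein, was called higher against wild-type (0.28). Of 6 mitochondrial chaperones, 4 rose and 1 fell: Grpel1, Trap1, Hspe1 and Hspd1 by 0.84, 0.47, 0.32 and 0.30 upward, and Grpel2 by 0.62 downward, each called by limma. These lists, like the members, were chosen with results of these data known.

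Marker genes of other cells differed between the same groups. In the somatodendritic knockdown arrays all 6 markers of dividing cells fell, and their mean level was 6.80 to 7.28, against 8.30 to 8.74 with empty vector and 8.47 to 8.86 in wild-type. Astrocyte markers fell in 6 of 9 (8.55 to 8.98 against 9.15 to 9.35 with empty vector), oligodendrocyte lineage markers in 4 of 7 (7.04 to 7.67 against 8.05 to 8.51) and fibroblast markers in 2 of 8 (6.23 to 6.61 against 6.92 to 7.25). Microglia markers rose in 11 of 12 (7.87 to 8.25 against 5.79 to 6.09), yet in wild-type they stood at 7.56 to 7.65. Of 10 neuron markers 3 rose and 3 fell (10.71 to 10.79 against 10.56 to 10.70). Interferon-induced genes rose in 10 of 10, to 9.96 to 10.36 from 5.09 to 5.20. The 3′ minus 5′ difference of the Gapdh control probes was 3.99 to 4.12 after knockdown, 3.53 to 3.68 with empty vector and 3.11 to 3.61 in wild-type. The part of these in the chaperone results was not tested.

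Lentivirus alone was addressed by comparing the empty vector with the wild-type arrays. In the cell bodies 0 of 79 chaperone genes were called by limma, beside 2.00% of all genes (0.484% higher and 1.52% lower), and 17 had an unadjusted p under 0.05. Of all 18191 genes, 3138 had such a p. The groups did not overlap in 14 of the 79, against 18.9% of all genes. The 5 lowest p-values belonged to Dnajc1, Pfdn1, Hspb6, Cct7 and Dnajc24. Dnajc1, a J-domain protein of the ER membrane, differed by -0.36 (limma, adjusted p = 0.0822) and Cct7 by 0.64 (limma, adjusted p = 0.117). Without wild-type replicate 3, 9 chaperone genes were called, a count for which the share of all genes is not given. In axons 0 were called by limma among the 79, beside 0% of all genes, with 4 chaperone genes and 603 of all genes at an unadjusted p under 0.05, and 4 chaperone genes without overlap, against 8.83% of all genes. Hspa1a (1.04) and Pfdn4 (-1.20) were among the 5 lowest p-values there, with Dnajc28, Hspb6 and Dnajc13.

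Between compartments, the J-domain gene Dnajc17 and 3 of the 5 prefoldin genes were higher on the axonal side of wild-type and of empty vector cells. Hspa1b was 5.17-fold and 4.61-fold lower there, calls that depended on the scaling of the arrays. All such values set levels against each other that appear normalized apart, and their p-values rest on 1 spread per gene over all 18 arrays. Against somatodendritic levels, limma called 26 of 79 in wild-type cells, 8 higher and 18 lower, beside 29.1% of all genes, 14.9% higher and 14.2% lower. In empty vector cells it called 31, 13 higher and 18 lower (42.0% of all genes, 23.7% higher and 18.2% lower), and in knockdown cells 56, 18 higher and 38 lower (61.7% of all genes, 34.0% higher and 27.7% lower). Of the genes called higher, 4, 7 and 9 were not above background in either compartment. The compartments did not overlap in 56, 52 and 61 of the 79, against 63.9%, 62.6% and 70.3% of all genes. The median difference of the chaperone genes was -0.50, -0.49 and -0.95, against 0.17, 0.17 and 0.13 for all genes. When all 18 arrays were brought to a common distribution, the calls became 8 (6 higher and 2 lower), 16 (11 and 5) and 44 (20 and 24). Among all genes 1572, 3462 and 8779 were then called, against 5285, 7632 and 11229 before. The medians of the chaperone genes became 0.13, 0.12 and -0.30, against 0.18, 0.21 and 0.21 for all genes. The excess of lower over higher chaperone calls in wild-type and empty vector cells therefore turned with the scaling. Common scaling ended 13 of the 18 named calls in wild-type and 10 of the 20 in empty vector cells. Without somatodendritic wild-type replicate 1, 2 or 3 the wild-type count was 14, 13 or 14, and without somatodendritic empty vector replicate 1 or 3 the empty vector count was 17 or 18. The share of all genes is not given for these counts, so they do not show a change particular to chaperone genes.

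**Figure D3:**
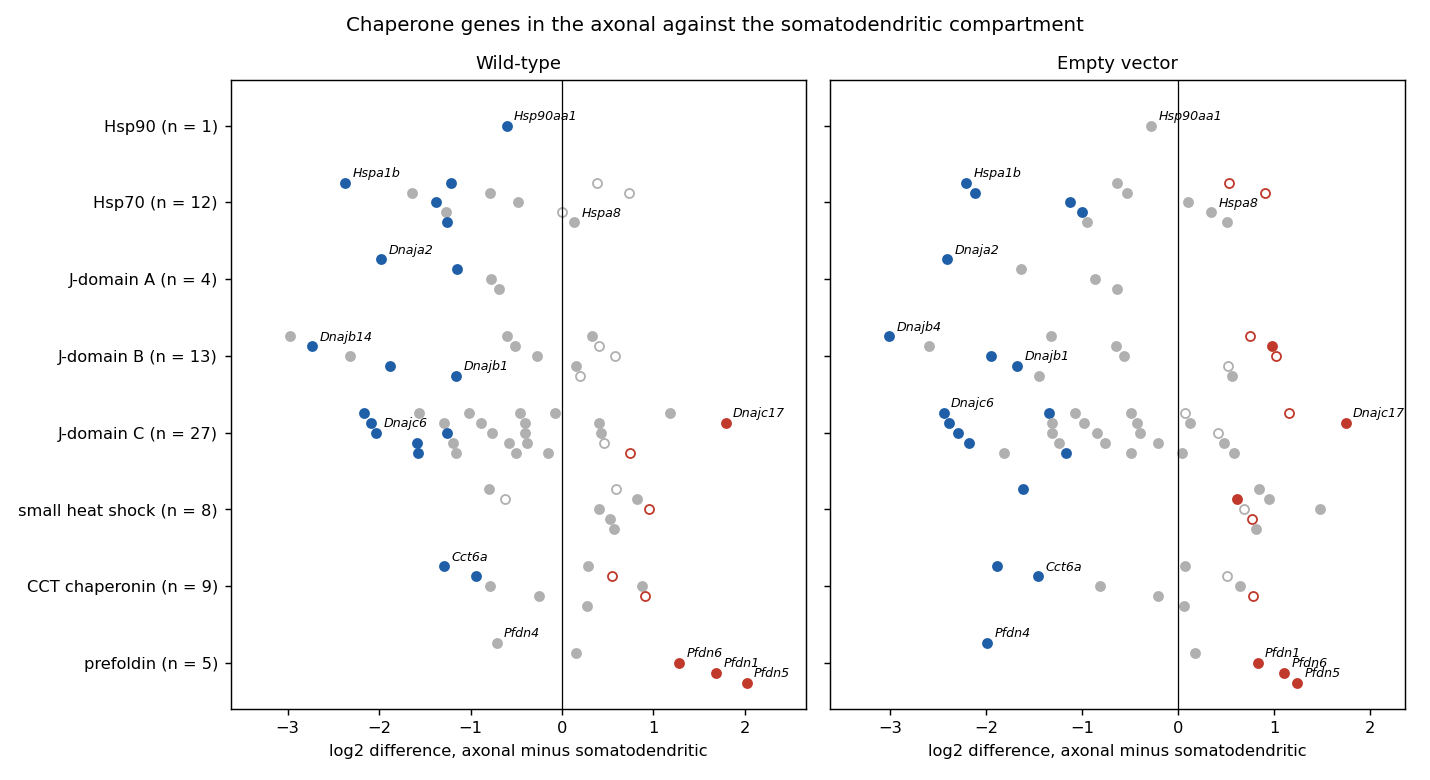
Log2 differences of the 79 chaperone genes between the axonal and the somatodendritic arrays, by class, in wild-type and in empty vector cells, coded as called higher (red), called lower (blue), not called (grey) and not above background in either compartment (open). Pfdn5 stands at 2.02 in wild-type and 1.24 in empty vector cells, and Hspa1b at -2.37 and -2.20. The compartments appear normalized apart.

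The prefoldin genes that rose kept their direction under that common scaling. Pfdn5 stood at 8.66, 8.36 and 8.79 in wild-type cell bodies and at 10.21, 10.94 and 10.71 in wild-type axons. The compartments did not overlap, and the difference was 2.02 (SE 0.22, limma, adjusted p = 6.4e-05), or 4.05-fold. In empty vector cells Pfdn5 differed by 1.24 (limma, adjusted p = 0.00145). Pfdn1 was 1.68 and 0.83 higher in axons of wild-type and empty vector cells (limma, adjusted p = 0.000749 and 0.0214) and Pfdn6 1.28 and 1.10 higher (limma, adjusted p = 0.0216 and 0.0296), its empty vector arrays overlapping. With all arrays on a common scale these differences in wild-type cells were 2.80 for Pfdn5, 2.08 for Pfdn1 and 1.97 for Pfdn6, all called. Pfdn4 was not higher. It stood at 11.91, 11.65 and 11.98 in empty vector cell bodies and at 9.46, 9.64 and 10.47 in the axons, and fell by 1.99 (limma, adjusted p = 0.00102). The call of Pfdn6 in wild-type cells ended without replicate 2 or 3 of either wild-type compartment (1.13 to 1.20), and that of Pfdn1 in empty vector cells without somatodendritic replicate 1 or 3 or axonal replicate 1 of that group (0.74 to 0.82). With array weights both calls ended as well (1.30, adjusted p = 0.0925, and 0.92, adjusted p = 0.0611, in limma).

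Dnajc17, a nuclear J-domain protein linked to splicing, showed the largest axonal excess of the J-domain genes. It stood at 8.57, 8.03 and 8.03 in wild-type cell bodies and at 10.75, 9.42 and 9.83 in the axons, without overlap, a difference of 1.79 (limma, adjusted p = 0.00127). A second probe set read 0.76. In empty vector cells the difference was 1.75 (limma, adjusted p = 0.00123), and on the common scale both stayed called, at 2.57 and 2.54. All other J-domain genes called and measured in wild-type cells were lower in axons. Dnaja2, a general partner of Hsp70, stood at 11.36 to 11.69 over the somatodendritic groups and at 9.59, 9.69 and 9.39 in wild-type axons, 3.94-fold lower (limma, adjusted p = 0.00383). On the common scale that call ended (-1.12, adjusted p = 0.144 in limma). Dnajb14, an ER membrane J-domain protein, was at least 4.85-fold lower and stayed called on the common scale, while its call in empty vector cells ended there (-1.38, adjusted p = 0.0597 in limma). Dnajc6, the auxilin that recruits Hsp70 to clathrin coats, differed by -2.03, which its mean over probe sets did not show (0.11). The call of Dnajc6 also ended without axonal wild-type replicate 1 or any 1 somatodendritic wild-type array (-2.08 to -1.61).

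Of the Hsp70 class, 4 of 12 genes were lower in wild-type axons and none higher. Hspa1b stood at 8.86, 9.84 and 9.73 in the axons, all below the cell bodies, and fell by 2.37 (SE 0.42, limma, adjusted p = 0.00181). Hspa4, the exchange factor, fell by 1.38 (adjusted p = 0.00318 in limma), and Hspa13 by 1.26 (adjusted p = 0.0345 in limma). None of these 3 calls held on the common scale, where the differences were -1.56 (adjusted p = 0.0573), -0.75 (adjusted p = 0.0825) and -0.31 (adjusted p = 0.679, all limma). In empty vector cells Hspa1b fell by 2.20 (limma, adjusted p = 0.00205), and the difference was -1.34 on the common scale (adjusted p = 0.0616 in limma). None of the 6 ER genes was called in those cells. Hspa8 stood at 13.61, 13.91 and 14.14 in wild-type axons and overlapped the cell bodies, with a difference of 0.13 (limma, adjusted p = 0.521). Hsp90aa1 stood at 12.14, 12.88 and 13.07, all under the cell bodies, a difference of -0.61 (limma, adjusted p = 0.0381), though its other probe sets disagreed with -1.04 and 2.17, and the common scale gave -0.41 (adjusted p = 0.198 in limma). Among the Cct genes, Cct6a and Cct8 fell by 1.29 and 0.94, not called on the common scale (-0.81 and 0.00), and Cct5 and Cct7 were not called. In wild-type axons microglia markers averaged 6.93 to 9.99 and astrocyte markers 6.24 to 8.40, and in empty vector axons 5.91 to 6.27 and 5.89 to 7.17. Their part in the difference between compartments was not tested.

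**Figure D4:**
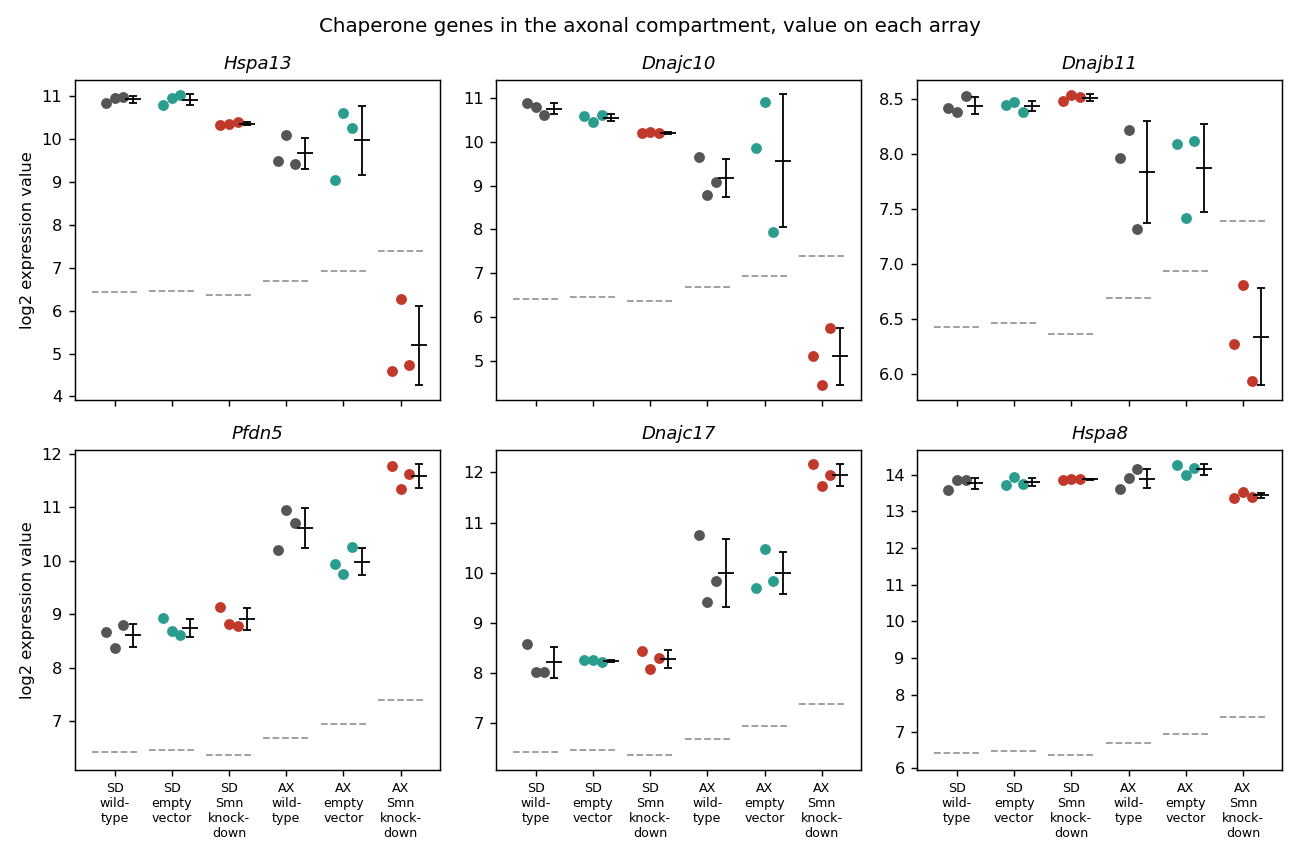
Deposited log2 levels of Hspa13, Dnajc10, Dnajb11, Pfdn5, Dnajc17 and Hspa8 on each of the 3 arrays of the 6 groups (SD, somatodendritic; AX, axonal), with the group mean ± SD in black and the mean background of the group as a dashed line. The ER genes Hspa13, Dnajc10 and Dnajb11 lie at or under background on the axonal knockdown arrays, Hspa13 at 4.59 to 6.26, while Pfdn5 lies at 11.34 to 11.78 and Hspa8 at 13.37 to 13.51. The compartments appear normalized apart.

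On the axonal arrays of Smn knockdown cells Pfdn1 read higher, and Hspa13 read under background on the probe set used. Both calls depended on single arrays, as given below. Against empty vector axons, limma called 2 of 79 chaperone genes, 1 higher and 1 lower, beside 0.176% of all genes, 0.0165% higher and 0.159% lower. In 23 of the 79 the groups did not overlap, against 21.8% of all genes, and 25 had an unadjusted p under 0.05. Of all 18191 genes, 3318 had such a p. The median difference was -0.31 in the chaperone genes and 0.06 in all genes. Against wild-type axons, which shares the knockdown arrays, 1 was called (lower), beside 0.0990% of all genes, 0.00550% higher and 0.0935% lower, and 24 did not overlap, against 28.8%. The medians by class against empty vector were positive in prefoldin (1.38) and the small heat shock proteins (0.66) and negative in CCT (-0.31), Hsp70 (-0.40), J-domain A (-0.79), B (-0.60) and C (-0.57).

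Pfdn1 stood at 8.57, 7.91 and 7.55 in wild-type axons, 7.90, 7.58 and 7.68 with empty vector, and 10.68, 10.61 and 10.08 after knockdown. The knockdown arrays lay far above both controls. Pfdn1 rose by 2.74 against empty vector (SE 0.33, limma, adjusted p = 0.0376), or 6.66-fold, and differed by 2.45 from wild-type (limma, adjusted p = 0.0562). Hspa13, whose protein binds ER-bound polypeptides, stood at 9.50, 10.09 and 9.43 in wild-type axons, 9.06, 10.60 and 10.26 with empty vector, and 4.59, 6.26 and 4.73 after knockdown. No knockdown array exceeded background. The fall was at least 6.01-fold against empty vector (limma, adjusted p = 0.0376) and at least 4.88-fold against wild-type (limma, adjusted p = 0.0371), while a second bright probe set read -0.80 against empty vector. These calls lie near the threshold. That of Pfdn1 ended with an intensity trend, and that of Hspa13 against empty vector with the mean over its probe sets (-1.56, adjusted p = 0.0865 in limma). Both calls against empty vector ended without any 1 of wild-type replicate 2 or 3, empty vector replicate 1, 2 or 3, or knockdown replicate 1 or 3 of the axons, with adjusted p up to 0.123 for Pfdn1 (2.63 to 2.92) and 0.122 for Hspa13 (-5.24 to -4.46). The call of Hspa13 against wild-type ended without each axonal array except empty vector replicate 2 and knockdown replicate 2 (-4.60 to -4.18, adjusted p up to 0.183 in limma). Without empty vector replicate 2, 7 chaperone genes were called against wild-type, a count for which the share of all genes is not given.

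Further genes had separate groups in axons without passing the test. Dnajc10, an ER reductase with a J-domain, stood at 9.65, 8.78 and 9.09 in wild-type, 9.86, 10.92 and 7.94 with empty vector, and 5.12, 4.45 and 5.76 after knockdown, at least 4.55-fold lower than with empty vector (limma, adjusted p = 0.0579). Dnajb11, the ER partner of Hspa5, stood at 7.96, 8.22 and 7.31, at 8.08, 7.41 and 8.12, and at 6.26, 6.81 and 5.94, at least 1.40-fold lower (limma, adjusted p = 0.0968). In both genes no knockdown array was above background. All 6 listed ER genes had negative fitted differences from empty vector, from -4.78 to -0.46 with a median of -1.91. Negative differences were also common elsewhere: in 49 of the 79 chaperone genes, with 10 of 12 Hsp70 and 4 of 4 J-domain A genes. Of the 6 ER genes, 1 was called and 3 did not overlap, and sizes against groups under background are not exact. The ER membrane genes Dnajb12 and Dnajb14 differed by 0.07 and -1.01 and were not called. Hspa1b stood at 8.95, 9.43 and 9.61 with empty vector and 5.47, 7.51 and 5.66 after knockdown, where 1 of 3 arrays exceeded background, a difference of -3.12 (limma, adjusted p = 0.0647). Dnajb1 stood at 10.60, 10.15 and 11.09 with empty vector and 8.09, 7.85 and 9.45 after knockdown, a difference of -2.15 (limma, adjusted p = 0.103). For each of these genes the knockdown arrays lay under every control array.

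On the upper side, Pfdn5 stood at 9.94, 9.76 and 10.25 in empty vector axons and 11.78, 11.34 and 11.63 after knockdown, a difference of 1.60 (limma, adjusted p = 0.0647) that its second probe set also showed (1.87). Dnajc17 stood at 9.68, 10.47 and 9.82 and at 12.16, 11.73 and 11.96, a difference of 1.95 (limma, adjusted p = 0.0743). Neither gene overlapped, and neither was called. Hspb11, whose product belongs to the intraflagellar transport complex rather than to the stress proteins, differed by 2.37 (limma, adjusted p = 0.114). Hspa8 stood at 14.25, 13.98 and 14.18 and at 13.37, 13.51 and 13.40, a difference of -0.71 (limma, adjusted p = 0.189). Hsp90aa1 stood at 12.93, 13.11 and 13.11 and at 12.25, 12.29 and 12.00, a difference of -0.87 (limma, adjusted p = 0.185). In both genes every knockdown array lay under every empty vector array. Vbp1 stood at 10.46, 11.31 and 11.07 with empty vector and at 8.89, 4.89 and 10.15 after knockdown, the widest spread among these genes. Neuron markers averaged 9.47 to 9.95 in empty vector axons and 7.79 to 9.45 in knockdown axons, and microglia markers 5.91 to 6.27 and 6.77 to 9.09. Their part in these values was not tested.

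Whether the knockdown difference itself differed between compartments was tested as an interaction over all 18 arrays. For each gene this fit used 1 spread over both compartments, though the median SD was 0.08 in somatodendritic and 0.60 in axonal knockdown arrays. The p-values here and between compartments rest on that pooled spread. For the axonal difference of Hspa13 from empty vector, the fit of the axonal arrays alone gave an adjusted p of 0.0376 (limma). By limma, 10 of 79 chaperone genes were called, 4 higher and 6 lower, beside 6.77% of all genes, 4.21% higher and 2.56% lower. The fitted interaction, the axonal minus the somatodendritic difference from empty vector, was -4.22 for Hspa13 (SE 0.58, limma, adjusted p = 0.00199), -4.12 for Dnajc10 (limma, adjusted p = 0.00848) and 1.93 for Pfdn1 (limma, adjusted p = 0.00957). No axonal knockdown array was above background for Hspa13 and Dnajc10, so their sizes are not exact, and with that group set at background they were -2.03 and -1.85, or lower. These bounds hold only for the probe set read for each gene. With the mean over its probe sets, Hspa13 differed from empty vector by -1.56 in axons and by -0.05 in cell bodies. With array weights the call of Pfdn1 ended (1.81, adjusted p = 0.0818 in limma). These 3 kept their calls when any 1 array was left out. The other 7 lost theirs without somatodendritic knockdown replicate 2, when 3 genes were called: Dnajb11 (-1.61), Dnajc18 (-1.59), Dnajc21 (-2.85), Cct5 (-1.20), Dnajc22 (1.31), Pfdn5 (1.43) and Dnajc17 (1.93). The mean over probe sets also ended the calls of Pfdn5 (0.66), Dnajc22 (0.725), Dnajc21 (-0.60) and Dnajc18 (-0.45). Array weights ended those of Dnajc17, Pfdn5 and Dnajc18. An intensity trend ended those of Pfdn5, Dnajc22 and Cct5, and common scaling that of Cct5. The count lay between 3 and 6 without any 1 somatodendritic array other than wild-type replicate 2, and was 18 without axonal empty vector replicate 2 and 19 without axonal knockdown replicate 2. For these counts the share of all genes is not given. Dnajc21, a J-domain protein of ribosome assembly, stood at 6.81, 4.93 and 8.07 in empty vector axons and 3.56, 4.07 and 4.09 after knockdown, all but 1 of these 6 arrays under background. Its fitted interaction and that of Dnajc18 have no bound, and that of Dnajb11 was -0.56 with the knockdown axons set at background. The interaction of Hspa1b was -1.98 (limma, adjusted p = 0.0583).

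Within knockdown cells, the axonal and somatodendritic levels were compared in the same way. Hspa1b was 18.2-fold lower in axons, with 1 of 3 axonal arrays above background, and Dnaja2 17.9-fold lower, with 2 of 3, and Hspa13 and Dnajc10 were at least 7.88-fold and 7.08-fold lower. Dnajc17 was 12.8-fold, Pfdn1 6.76-fold and Pfdn5 6.39-fold higher. Hspb8 stood at 8.87, 7.46 and 8.35 in knockdown axons and under background in the cell bodies, at least 3.64-fold higher, and Hspb9, a small heat shock protein known from testis, at least 3.72-fold higher. All of these were called by limma, and no named call of this comparison ended when 1 array was left out. That of Hspb8 ended without probe sets that match several transcripts (1.02, adjusted p = 0.107 in limma), and that of Dnajc21 (-5.02) with the mean over its probe sets (-0.31, adjusted p = 0.0768 in limma).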

How the data were processed

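RNA of 18 samples was measured on Affymetrix Mouse430_2 arrays. The deposited values are log2 expression levels of 45101 probe sets. How they were computed from the scans is not stated (software: not given in the sources used here). Sorted values agree among the 9 arrays of a compartment and differ between compartments, so each compartment was taken to be normalized apart. Probe sets with 1 gene in the platform annotation were kept, 34934 in all, and 11 probe sets that lacked values and 64 control probe sets were left out. The members and lists were chosen with earlier results of these data known.

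Differences were fitted in R 4.3.3 by the functions lmFit and eBayes of limma 3.58.1 (Benjamini-Hochberg over 18191 genes, threshold 0.05), on 9 arrays within a compartment and on 18 between compartments. The fit was tested on simulated data. A gene is not above background in a group where no array exceeds the level, and a fold against such a group is a bound ("at least"), set at the background of its arrays. Means and SDs are over 3 arrays. Named in each comparison are the called members whose arrays do not overlap (up to 10 rises and 10 falls, or the 5 lowest p-values where none passed), the members with the highest mean of each class, the inducible members, and leading genes of each list. Alternatives covered the choice of probe set, a filter on dim genes, array weights, an intensity trend, a single fit, a common scaling of all arrays, a replicate block and leaving out arrays. All 79 symbols matched RefSeq. Tables were handled with Python 3.11.15 and pandas 2.3.3. For arrays, precision is limited by their number and by signal over background.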

Additional observations from a re-analysis of the deposited data

Results flagged for a closer look

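The difference between compartments in the knockdown effect, tested as an interaction in limma, passed the threshold for 10 chaperone genes, listed here as axonal minus somatodendritic difference from empty vector. The fitted value was -4.22 for Hspa13, -4.12 for Dnajc10, -2.85 for Dnajc21, -1.61 for Dnajb11, -1.59 for Dnajc18 and -1.20 for Cct5. It was 1.93 for Pfdn1, 1.93 for Dnajc17, 1.43 for Pfdn5 and 1.31 for Dnajc22. For Hspa13, Dnajc10, Dnajb11, Dnajc18 and Dnajc21 no axonal knockdown array was above background, so these sizes are not exact. With that group set at background they were -2.03 for Hspa13, -1.85 for Dnajc10 and -0.56 for Dnajb11, or lower, and Dnajc18 and Dnajc21 have no bound. The bounds hold only for the probe set read for each gene. With the mean over its probe sets, Hspa13 differed from empty vector by -1.56 in axons and by -0.05 in cell bodies. Of the 10 calls, 7 ended when 1 array was left out, namely all but those of Hspa13, Dnajc10 and Pfdn1. The call of Pfdn1 ended with array weights. The mean over probe sets also ended those of Pfdn5, Dnajc22, Dnajc21 and Dnajc18.

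Cct8, a subunit of the chaperonin ring, had differences of opposite sign against wild-type. Somatodendritic knockdown arrays were all higher, by 0.55, with 9.42, 9.33 and 9.83 in wild-type and a mean of 10.07 (SD 0.07, n = 3) after knockdown. Axonal knockdown arrays were all lower, by -0.90, with 8.68, 8.47 and 8.61 in wild-type and 7.52, 7.24 and 8.30 after knockdown, which was not called (limma, adjusted p = 0.235). The somatodendritic rise was called (limma, adjusted p = 0.00342), but not with the mean over the probe sets of Cct8 (0.14, adjusted p = 0.165 in limma). The difference between these 2 effects was not tested.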

How the results depend on the processing

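The single fit over all 18 arrays changed the calls most: 0 against empty vector and 1 against wild-type in the cell bodies after knockdown (24 and 28 otherwise), and 26, 23 and 1 in axons for knockdown against empty vector, knockdown against wild-type and empty vector against wild-type (2, 1 and 0 otherwise). For the axonal knockdown against empty vector, the mean over probe sets gave 1, an intensity trend 1, leaving out axonal knockdown replicate 1 and empty vector replicate 2 together 0 (24 at an unadjusted p under 0.05); against wild-type, array weights gave 10 and leaving out both 0 (19 at an unadjusted p under 0.05). Between compartments, wild-type cells gave 41 with array weights, 8 after common scaling and 45 without those arrays (26 otherwise), empty vector cells 16 after common scaling (31), and the interaction 17 without those arrays (10). Common scaling left 1572 and 3462 of all genes called in wild-type and empty vector cells (5285 and 7632 otherwise). For the axonal counts here and below, and for all counts with array weights, a replicate block or arrays left out, the share of all genes is not given. Those counts therefore do not show a change particular to chaperone genes.

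Leaving out 1 array gave 16 to 25 and 21 to 29 for the somatodendritic knockdown against empty vector and wild-type, 0 to 9 for the somatodendritic empty vector, 0 to 3, 0 to 7 and 0 to 0 for the axonal comparisons in the same order, 13 to 33, 17 to 39 and 52 to 61 between compartments in wild-type, empty vector and knockdown cells, and 3 to 19 for the interaction. The somatodendritic empty vector comparison gave 9 without wild-type replicate 3. Over the mean of probe sets, these named differences changed sign: Dnajb1 to 0.048 and 0.078 (somatodendritic knockdown against empty vector and wild-type), Hspa13 to 0.089 (against wild-type), Dnajc6 to 0.11 (axonal, wild-type) and Dnajc21 to 0.29 (axonal, empty vector). Dnajc24 turned to 0.083 (somatodendritic empty vector) without probe sets that match several transcripts. The cause was not tested.

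Arrays sharing a title number gave 30 correlations, of which 1 exceeded 0.1 (-0.19 to 0.23). Such weak correlations show no clear pairing, but they cannot exclude it. Knockdown arrays carry different numbers in cell bodies and axons, so those groups were not compared in this way. In replicate order they correlated at 0.066, 0.079 and 0.084, and in other combinations at -0.071 to 0.001. With the number as a replicate block, calls were 0 and 0 for the empty vector comparisons, 0 and 0 for the axonal knockdown against empty vector (25 at an unadjusted p under 0.05) and wild-type (19), and 27 and 35 between compartments. The correlations and the axonal block matched axonal knockdown arrays to control arrays by number alone, though their titles follow different schemes. No link between the schemes is given, so for these arrays neither the correlations nor the block can decide on pairing. Signal over background limits the axonal knockdown values most, since 28 of the 79 genes were above it there on all 3 arrays. Knockdown array titles follow another scheme than control titles, and whether these arrays were handled apart is not given.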

Other observations

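Probe sets of the same gene did not always move together, which bears most on the abundant chaperones. In the somatodendritic knockdown against empty vector, 10 of the 24 called members had other measurable probe sets, 15 in all, and 12 of these 15 probe sets differed in the same direction. The 3 others belonged to Dnajb5, Dnajc2 and Hspa13. Against wild-type, 16 of 21 probe sets of 12 members had the same direction, the others belonging to Cct4, Dnajb4, Dnajc2, Hspa13 and Hspa14. Between compartments, 15 of 16 probe sets of 11 members did in wild-type cells (not 1 of Hsp90aa1) and 14 of 15 of 10 members in empty vector cells (not 1 of Dnajc11). Hspa8 differed from wild-type by 1.05 and 1.01 in its other probe sets, and Hsp90aa1 by 0.89 and 2.09, while the probe sets with the highest mean were not called.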
